A study of Mus musculus with 18 samples.

Results

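The genes described here encode the nuclear subunits of oxidative phosphorylation. They were taken as the protein-coding genes whose symbols begin with Nduf (letters a, b, c, s or v with a number), Sdha to Sdhd, Uqcr, Cyc1, Cox4 to Cox8 or Atp5. This rule, which uses no measured value, found 90 of the 57126 genes in the table, of which 37 belong to complex I, 4 to complex II, 9 to complex III, 21 to complex IV and 19 to complex V. A further 18 genes fit the symbols but are not protein-coding and were not used. Ndufa4 and Ndufa4l2 were placed in complex IV, where NDUFA4 is now assigned, in spite of their symbols. The symbol Atp5po is held by 2 gene entries, and the second of these had no counts in any tumor.

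The 18 mammary tumors came from female F1 hybrids of BALB/c and C57BL6/J mice, and their total RNA was sequenced after removal of ribosomal RNA. The somatic model alters Trp53 by adenoviral Cre injected into the mammary ducts, so that cells the virus did not reach keep wild-type Trp53. The groups were 7 MaPR172H/- tumors, with 1 p53R172H missense allele beside a deleted allele, 5 MaPR245W/- tumors, with p53R245W in its place, and 6 MaP-/- tumors, with both alleles deleted. The 12 mutant tumors came from 12 mice and the 6 MaP-/- tumors from 4 mice, since JM663 and JM833 each gave a T1 and a T2 tumor. A TdTomato reporter allele was carried by 3 MaPR172H/- tumors, 3 MaPR245W/- tumors and 0 MaP-/- tumors. All MaPR172H/- libraries were read on a HiSeq 4000, with shorter reads, and all others on a NovaSeq 6000. The study lists every MaPR172H/- tumor as a nonmetaplastic adenocarcinoma of luminal B or HER2-enriched subtype. It lists every tumor of the other groups as triple-negative, some of them metaplastic. In any comparison with the MaPR172H/- group the genotype therefore cannot be told apart from the sequencer, the read length and the tumor subtype. For mice JM779 and JM836 the labels give a T1 tumor, whereas the study's list of mice marks the T2 tumor as sequenced. Library totals spanned 23113578 to 27930163 counts for MaPR172H/- (median 24064910), 30030630 to 37365062 for MaPR245W/- (median 33581143) and 24736337 to 32085794 for MaP-/- (median 27212265.5).

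Complexes I to IV form the electron transport chain of the inner mitochondrial membrane. Electrons from NADH enter at complex I and those from succinate at complex II, pass through ubiquinone to complex III and by cytochrome c to complex IV, and reduce oxygen to water. Complexes I, III and IV pump protons, and complex V, the ATP synthase, uses the gradient to make ATP. All complexes but II also hold subunits encoded by mitochondrial DNA, so their assembly draws on both genomes. In the mammary epithelium, as in most tissues, the nuclear subunits are expressed as housekeeping genes, with tissue-restricted copies of some complex IV subunits in muscle, fat or testis.

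The labels were first set against Trp53 itself. Values in CPM, counts scaled to a common library total with the trimmed mean of M-values (TMM), are used throughout for levels between tumors. Trp53 was at 41.4 to 50.3 CPM in 6 MaPR172H/- tumors and at 10.8 CPM in YZ11. The MaPR245W/- tumors JM1564, JM1126 and JM1133 were at 27.1, 27.6 and 59.0 CPM, and JM1233 and RM0014 at 11.4 and 9.09 CPM. The MaP-/- tumors were between 9.43 and 21.6 CPM. YZ11 and JM1233 were therefore within the range of the MaP-/- tumors and RM0014 just below it, and gene counts do not show which allele the reads came from.

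A few libraries stood apart in their tissue markers. Summed over 16 epithelial genes, YZ7 had 611 CPM, JM1233 had 545 CPM and JM779-T1 had 184 CPM, against 1719 to 11844 CPM in the other 15 tumors. Krt18, the most abundant of these genes on average, was at 39.3 CPM in YZ7 and 2664 CPM in YZ11. JM1233 had 8080 CPM over 28 skeletal muscle genes, led by Ttn at 4924 CPM, against 692 CPM in JM1133 and at most 237 CPM elsewhere. JM833-T1 had 6564 CPM over 10 fat genes, with Fabp4 at 1939 CPM, against at most 792 CPM elsewhere. In bulk tissue, fewer cells of a type and less RNA per cell cannot be told apart. Values without these libraries are given beside the main results they move most.

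Promoter sequences were scanned apart from the expression data, and no single motif was found in most of them. RefSeq windows on GRCm38.p6, running from 250 bases before to 50 bases after the annotated start, were found for 68 members (73 windows). Each was scanned on both strands for 6 motifs written as fixed letters. The NRF1 motif, bound by nuclear respiratory factor 1 and spelled GCGCA, any base, then GCGC, was in 24.7% of the member windows and in 4.6% of all 32851 windows. The ETS motif CCGGAAG, the class bound by the GABP (NRF2) factor, was in 21.9% against 8.86%. The YY1 motif AAGATGGCG was in 9.59% (7 windows) against 1.4%. The motif CAAGGTCA, of the type read by NR5A and estrogen-related receptors, was in 5.48% (4 windows) against 1.56%. The SP motif GGGCGG (38.4% against 35.7%) and CCAAT (41.1% against 37.4%) were found at shares closer to those of all windows. No letters of these motifs contain another of them, though matches can lie side by side. The member windows also had a higher median GC content, 57.3% against 52.7%. By complex, NRF1 was in 8 of 34 windows of complex I, 2 of 3 of complex II, 1 of 5 of complex III, 1 of 14 of complex IV and 6 of 17 of complex V.

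The following 4 windows, each found unchanged in GRCm39 and written 5′ to 3′ on the strand of the gene, hold an NRF1 match and belong to members described below. Capitals mark the matches to the NRF1, ETS, YY1 and NR5A motifs on either strand. Cox6a1 lies on the minus strand at chr5:115486968-115487267 and holds 2 NRF1 matches and an ETS match (CTTCCGG). Ndufa11 lies on the plus strand at chr17:57024512-57024811 and holds 1 NRF1 match. Ndufs6 lies on the minus strand at chr13:73476552-73476851 and holds an NRF1 match before the start and a YY1 match after it. Sdhd lies on the minus strand at chr9:50515100-50515399 and holds matches to NRF1 and ETS before the start and, after it, the NR5A motif on the opposite strand. A match describes letters only.
Cox6a1: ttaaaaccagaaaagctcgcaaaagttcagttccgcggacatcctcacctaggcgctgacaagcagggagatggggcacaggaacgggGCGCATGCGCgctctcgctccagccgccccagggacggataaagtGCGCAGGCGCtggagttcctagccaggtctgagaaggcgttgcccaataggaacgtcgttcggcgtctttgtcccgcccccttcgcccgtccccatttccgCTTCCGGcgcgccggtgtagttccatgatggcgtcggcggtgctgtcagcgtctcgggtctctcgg
Ndufa11: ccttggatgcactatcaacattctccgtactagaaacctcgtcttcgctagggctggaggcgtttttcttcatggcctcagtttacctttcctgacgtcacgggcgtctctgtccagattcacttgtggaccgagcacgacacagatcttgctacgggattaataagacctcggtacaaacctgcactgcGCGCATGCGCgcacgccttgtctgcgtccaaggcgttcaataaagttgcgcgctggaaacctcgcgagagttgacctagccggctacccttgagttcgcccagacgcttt
Ndufs6: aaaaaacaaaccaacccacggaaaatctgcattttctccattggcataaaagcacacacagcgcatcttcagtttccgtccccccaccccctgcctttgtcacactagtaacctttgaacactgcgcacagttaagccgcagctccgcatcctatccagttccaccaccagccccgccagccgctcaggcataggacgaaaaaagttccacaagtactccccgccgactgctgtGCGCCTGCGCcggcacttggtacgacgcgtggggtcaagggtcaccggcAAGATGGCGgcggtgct
Sdhd: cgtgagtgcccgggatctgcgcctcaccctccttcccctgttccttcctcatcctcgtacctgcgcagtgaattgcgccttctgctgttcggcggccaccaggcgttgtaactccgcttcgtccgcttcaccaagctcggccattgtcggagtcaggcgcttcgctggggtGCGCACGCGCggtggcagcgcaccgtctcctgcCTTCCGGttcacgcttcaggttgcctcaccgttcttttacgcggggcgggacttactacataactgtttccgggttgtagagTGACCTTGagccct

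Levels between genes are given as TPM, counts per length scaled to a fixed total, computed with the exon length of each gene's canonical transcript and averaged over the 18 tumors. The catalytic beta subunit of ATP synthase, Atp5f1b, was the highest member at 1000.3 TPM, followed by the alpha subunit Atp5f1a at 691 TPM. In complex IV the highest were Cox4i1 (645 TPM), Cox6c (518 TPM) and Cox6b1 (510 TPM), which encode subunits around the mitochondrially encoded core. Complex III was led by Uqcr10 (260 TPM), complex I by the accessory subunit Ndufa6 (226 TPM) and complex II by the membrane anchor Sdhd (155 TPM), with the flavoprotein Sdha at 148 TPM. The order depends on the length used, since the coding length put Ndufa5 (233 TPM), Sdhc (231 TPM), Uqcrh (539 TPM), Cox6b1 (720 TPM) and Atp5f1b (672 TPM) first in complexes I to V. The mean of Ndufa5, close to that of Ndufa13 (221 TPM), was raised by YZ6, JM833-T2 and JM833-T1. These were at 245, 217 and 101 CPM, against 10.8 to 49.0 CPM elsewhere. Apart from the second Atp5po entry, which was at 0 TPM, the lowest members were the copies Cox6a2 (1.76 TPM), Cox8b (0.802 TPM), Ndufb11b (0.0493 TPM), Cox8c (0.0150 TPM) and Cox7b2 (0.00236 TPM).

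Taken over all members, the MaPR245W/- tumors had the highest mean level and the MaP-/- tumors the lowest. The summed level was 7670 ± 1221 CPM (SD, n = 5) in MaPR245W/-, 6252 ± 914 CPM (n = 7) in MaPR172H/- and 5609 ± 477 CPM (n = 6) in MaP-/- tumors. The members took 0.523% to 0.812% of each tumor's counts, with group medians of 0.721%, 0.620% and 0.582% in the same order. So that abundant genes do not decide the value, each tumor was also given a score, the mean deviation of log2(CPM + 1) from the 18-tumor mean over the 82 members with a mean of at least 1 CPM. This score was 0.27 ± 0.24 in MaPR245W/-, -0.06 ± 0.24 in MaPR172H/- and -0.15 ± 0.11 in MaP-/- tumors. Within MaPR245W/- it was 0.56 in JM1133, 0.40 in JM1564, 0.33 in RM0014, 0.03 in JM1126 and 0.02 in JM1233. In MaPR172H/- it ran from -0.35 (YZ10) to 0.35 (YZ7) with a median of -0.06 (YZ11). In MaP-/- it ran from -0.27 (JM833-T1) to 0.03 (JM779-T1) with a median of -0.17. The 3 groups overlapped, since JM1126 and JM1233 sat beside JM779-T1 and below the highest MaPR172H/- tumors.

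Each complex was then scored by itself. Complex I scored 0.27 ± 0.24 in MaPR245W/-, -0.07 ± 0.21 in MaPR172H/- and -0.14 ± 0.10 in MaP-/- tumors. Complex II, with 4 genes, differed least, at 0.18 ± 0.13, -0.08 ± 0.35 and -0.06 ± 0.22. In complex III the MaPR172H/- tumors (0.04 ± 0.24) lay between the MaPR245W/- (0.24 ± 0.27) and MaP-/- tumors (-0.24 ± 0.13). In complex IV the same values were -0.03 ± 0.33, 0.27 ± 0.26 and -0.19 ± 0.13. In complex V the MaPR172H/- tumors (-0.12 ± 0.24) and MaP-/- tumors (-0.12 ± 0.16) had the same mean, and the MaPR245W/- tumors were at 0.31 ± 0.25. YZ7 was the highest MaPR172H/- tumor and JM1133 the highest MaPR245W/- tumor in every complex.

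**Figure D1:**
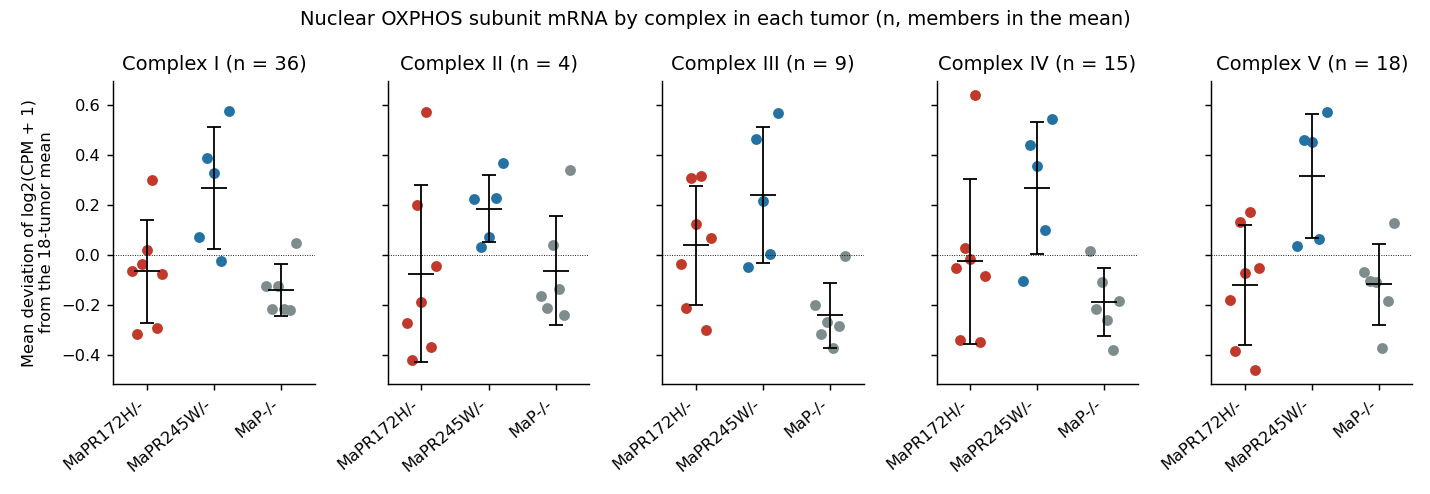
Each point is a tumor, and the vertical axis is the mean deviation of log2(CPM + 1) from the 18-tumor mean over the members of a complex. Horizontal bars are group means and whiskers are SD (7 MaPR172H/-, 5 MaPR245W/- and 6 MaP-/- tumors). The MaPR245W/- mean is the highest in each complex, from 0.18 in complex II to 0.31 in complex V, and the groups overlap in all of them.

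The MaPR245W/- tumors were compared with the MaP-/- tumors to ask what this missense allele changes against loss of Trp53. A filter on low counts left 84 of the 90 members in each comparison, without Ndufb11b, Cox6a2, Cox8b, Cox8c, Cox7b2 and the second Atp5po entry. Of the 84 members tested, 81 had a log2 fold change above 0, where 51.8% of all genes tested and 62.6% of the protein-coding genes tested did. Their median log2 fold change was 0.47, or 1.39-fold, against 0.02 over all genes tested and 0.12 over the protein-coding ones. With edgeR's quasi-likelihood test, 0 members passed a Benjamini-Hochberg FDR of 0.05 in either direction, and neither did any of the 21452 genes tested (0% higher and 0% lower). At an unadjusted p below 0.05 there were 38 members higher (5.32% of all genes and 6.87% of protein-coding genes) and 0 lower (6.46%). DESeq2 called 10 members higher (0.398% of its genes) and 0 lower (0.606%). Among the 21452 genes that passed the filter it called 141 higher and 188 lower. The median over the members was 0.47 in complex I, 0.28 in II, 0.50 in III, 0.49 in IV and 0.50 in V, so complex II had the smallest shift.

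The tumors of the 2 groups did not overlap for 6 members, all higher in MaPR245W/- (0.475% of all genes tested), and for 0 lower (0.848%). In complex I, the NADH-binding core subunit Ndufv1 was at 108, 163, 157, 88.2 and 125 CPM in JM1233, JM1564, RM0014, JM1126 and JM1133, and between 74.3 and 86.2 CPM (median 84.1) in MaP-/- tumors. All MaPR245W/- values lay above the MaP-/- range, which was narrow, with JM1126 nearest to it (log2 fold change 0.63, SE 0.17, adjusted p = 0.36 in edgeR). The membrane arm subunit Ndufa11, whose promoter is printed above, was at 22.6, 34.6, 25.2, 19.2 and 28.1 CPM in the same order and at 11.1 to 17.5 CPM (median 14.4) in MaP-/- tumors. It had the smallest adjusted p of all members in this comparison, 0.334 in edgeR (log2 fold change 0.83, SE 0.20). The accessory subunit Ndufb7 was 0.70 higher on the log2 scale (SE 0.19) and the complex III subunit Uqcr11 0.70 higher (SE 0.18). Cox7a2l, a factor that joins complexes III and IV into supercomplexes, was 0.72 higher (SE 0.19), and Atp5me, the e subunit of ATP synthase, 0.46 higher (SE 0.15). None of these 6 passed the adjusted test in edgeR. In DESeq2, Ndufa11, Uqcr11, Ndufv1, Cox7a2l and Ndufb7 passed it (adjusted p of 0.00571 to 0.0425), and Atp5me did not (0.103).

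Other members with large values in the same comparison did overlap. The largest log2 fold change of each complex was that of Ndufs8, an iron-sulfur core subunit of complex I (0.86, SE 0.22), Ndufa4 in complex IV (0.89, SE 0.29), the ATP synthase epsilon subunit Atp5f1e (0.77, SE 0.19), Uqcr10 in complex III (0.74, SE 0.23) and the membrane anchor Sdhc in complex II (0.37, SE 0.19). The complex I core subunit Ndufs1 was near 0 (0.06, SE 0.18), as was Sdha (0.05, SE 0.19). The 3 members with a negative value were Ndufa5 (-1.13, SE 0.69), the ATP synthase g subunit Atp5mg (-0.38, SE 0.23) and Cox6b2 (-0.27, SE 0.50). Ndufa5 turned to 0.50 when both tumors of mouse JM833 were left out. Skeletal muscle genes, whose median log2 fold change was 3.72 with 21 of 21 tested genes above 0, 0 called and 19 at p below 0.05, moved with this comparison. Without JM1233 their median was 1.21, with 19 of 21 above 0 and 12 higher at p below 0.05. White and general fat genes had a median of -6.29 over 10 tested, with 0 called and 9 lower at p below 0.05. Without JM833-T1 the median was -3.07 over 9 tested, with 5 lower at p below 0.05. The median was 0.70 in epithelial genes (13 of 16 above 0, 2 higher and 1 lower at p below 0.05) and 0.63 in fibroblast genes (3 of 10 higher at that p). It was 0.54 in pericyte and smooth muscle genes (3 of 10 higher) and -0.34 in leukocyte genes (3 of 14 lower). Brown and beige fat genes were at -1.15 (2 of 4 above 0 and 2 lower at that p) and red blood cell genes at -0.87 (0 of 6 above 0, 1 lower). The part of these cells in the members' values was not tested. The median of the members was 0.51 without JM1233 and 0.38 without JM1133.

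A separate fit set the MaPR172H/- tumors against the same MaP-/- tumors that served in the comparison above. At an FDR below 0.05, 9 of the 84 tested were called higher, where 3.67% of all 20954 genes were, and 4 lower, where 4.73% were. DESeq2 called 15 higher (3.3% of its genes) and 4 lower (4.52%). Among the 20954 genes that passed the filter it called 1327 higher and 1470 lower. The test treats the 6 MaP-/- tumors as separate samples, although they came from 4 mice. With the counts of tumors from 1 mouse summed, 6 members were higher (1.75% of all genes in that fit) and 4 lower (3.43%). Ndufb10, Ndufs8 and Cox7a2l were not among them. A total of 52 members were above 0, as were 50.2% of all genes and 54% of the protein-coding genes tested. The median was 0.18, and 0.05 without YZ7, 0.10 without YZ4 and 0.12 without YZ11. At an unadjusted p below 0.05 there were 21 higher (11.6% of all genes and 13.5% of protein-coding genes) and 8 lower (13.1%). The higher members were Ndufs6, Ndufb10 and Ndufs8 (complex I), Uqcrb and Uqcrq (III), Cox6a1 and Cox7a2l (IV), and Atp5if1 and Atp5f1d (V). The lower ones were Ndufb1 and Ndufs4 (I), Cox7c (IV) and Atp5mj (V). No gene of complex II was called, with Sdhb at 0.25 (SE 0.33), Sdhc at 0.09 (SE 0.23), Sdha at 0.02 (SE 0.13) and Sdhd at -0.20 (SE 0.21). The groups did not overlap for 5 of the higher members (2.01% of all genes tested) and for all 4 lower ones (2.62%).

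In complex V, Atp5if1 encodes the inhibitor that blocks ATP hydrolysis by the synthase when the membrane potential falls. It was at 36.6 to 100.5 CPM (median 46.7) in MaPR172H/- tumors, at 11.8 to 22.02 CPM (median 19.3) in MaP-/- tumors and at 21.0, 28.0, 23.6, 23.1 and 24.0 CPM in the MaPR245W/- tumors JM1233, JM1564, RM0014, JM1126 and JM1133. All MaPR172H/- tumors lay above both other groups, with YZ7 far above the rest (log2 fold change against MaP-/- 1.60, SE 0.25, adjusted p = 0.00186 in edgeR). Without YZ7 the log2 fold change was 1.39. Atp5f1d, the delta subunit of the central stalk, was 0.92 higher (SE 0.20, adjusted p = 0.0130), with YZ10 at 49.2 CPM inside the MaP-/- range of 44.3 to 64.9 CPM. Atp5mj, a small subunit of the membrane part, was at 11.6 to 19.5 CPM (median 16.3) in MaPR172H/- tumors and 25.4 to 41.2 CPM (median 33.9) in MaP-/- tumors. It fell by 1.09 on the log2 scale (SE 0.17, adjusted p = 0.00215 in edgeR).

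In complex I, Ndufb1, a small accessory subunit of the membrane arm, had the largest fall of any member. It was at 7.34 to 13.0 CPM (median 8.94) in MaPR172H/- tumors, at 23.2 to 40.1 CPM (median 31.1) in MaP-/- tumors and at 41.7, 60.3, 44.6, 38.8 and 56.8 CPM in MaPR245W/- tumors. The MaPR172H/- tumors lay below both other groups without overlap (log2 fold change against MaP-/- -1.68, SE 0.18, adjusted p = 0.000155 in edgeR). Ndufs4, an accessory subunit whose loss causes Leigh syndrome in humans, was at 22.3 to 30.5 CPM (median 24.8) against 31.5 to 49.8 CPM (median 44.97) in MaP-/- tumors, a fall by 0.70 on the log2 scale (SE 0.15, adjusted p = 0.0107 in edgeR). Ndufs6, which binds zinc, moved the other way, with 39.1 to 47.2 CPM (median 42.7) against 19.0 to 32.6 CPM (median 24.3). Its spread in MaPR172H/- tumors was small and the groups did not overlap (log2 fold change 0.83, SE 0.14, adjusted p = 0.00386 in edgeR). Ndufb10 (0.70, SE 0.18) and Ndufs8 (0.49, SE 0.14) were called with overlapping groups. Ndufb6 had the largest value of complex I (0.85, SE 0.26) but missed the threshold in edgeR, with an adjusted p of 0.0598. DESeq2 called it (adjusted p = 0.0189). The core subunits Ndufs1 (-0.04, SE 0.23) and Ndufv1 (0.09, SE 0.14) were not called.

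In complex III edgeR called 2 of 9 members higher, and in complex IV 2 of 17 higher and 1 lower. Uqcrb, the ubiquinone-binding subunit of complex III, was at 60.4 to 83.9 CPM (median 69.2) in MaPR172H/- and 34.3 to 52.3 CPM (median 43.4) in MaP-/- tumors. It was 0.74 higher on the log2 scale (SE 0.14, adjusted p = 0.00742), and Uqcrq 0.86 higher (SE 0.17, adjusted p = 0.00794), both in edgeR and both without overlap. The Rieske protein Uqcrfs1 (-0.31, SE 0.14) and the core proteins Uqcrc1 (0.59, SE 0.20) and Uqcrc2 (0.04, SE 0.12) were not called in edgeR. DESeq2 called Uqcrc1 higher (adjusted p = 0.0478). In complex IV, Cox6a1, the widely expressed form of a subunit at the dimer interface, was at 66.0 to 152 CPM (median 111) against 44.5 to 62.2 CPM (median 54.5). All MaPR172H/- tumors lay above the MaP-/- tumors, YZ3 by the least (log2 fold change 0.98, SE 0.20, adjusted p = 0.00952 in edgeR). Cox7c, a small membrane subunit, was at 12.7 to 19.2 CPM (median 18.04) against 26.6 to 52.6 CPM (median 34.7), again without overlap. It fell by 1.06 on the log2 scale (SE 0.17, adjusted p = 0.00228 in edgeR). Cox4i1 (-0.13, SE 0.15), Cox5a (0.00, SE 0.20) and Cox6c (-0.28, SE 0.19) were not called. The median was 0.24 in complex I, 0.06 in II, 0.37 in III, 0.30 in IV and -0.10 in V, where 8 of 18 members were above 0. Without YZ7 these medians were 0.15, -0.05, 0.26, -0.06 and -0.14. Complex V was at 0.003 without JM779-T1, -0.18 without YZ4 and -0.16 without JM833-T1, complex IV at 0.18 without JM663-T1, and complex II between -0.05 and 0.11 with 1 tumor left out.

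**Figure D2:**
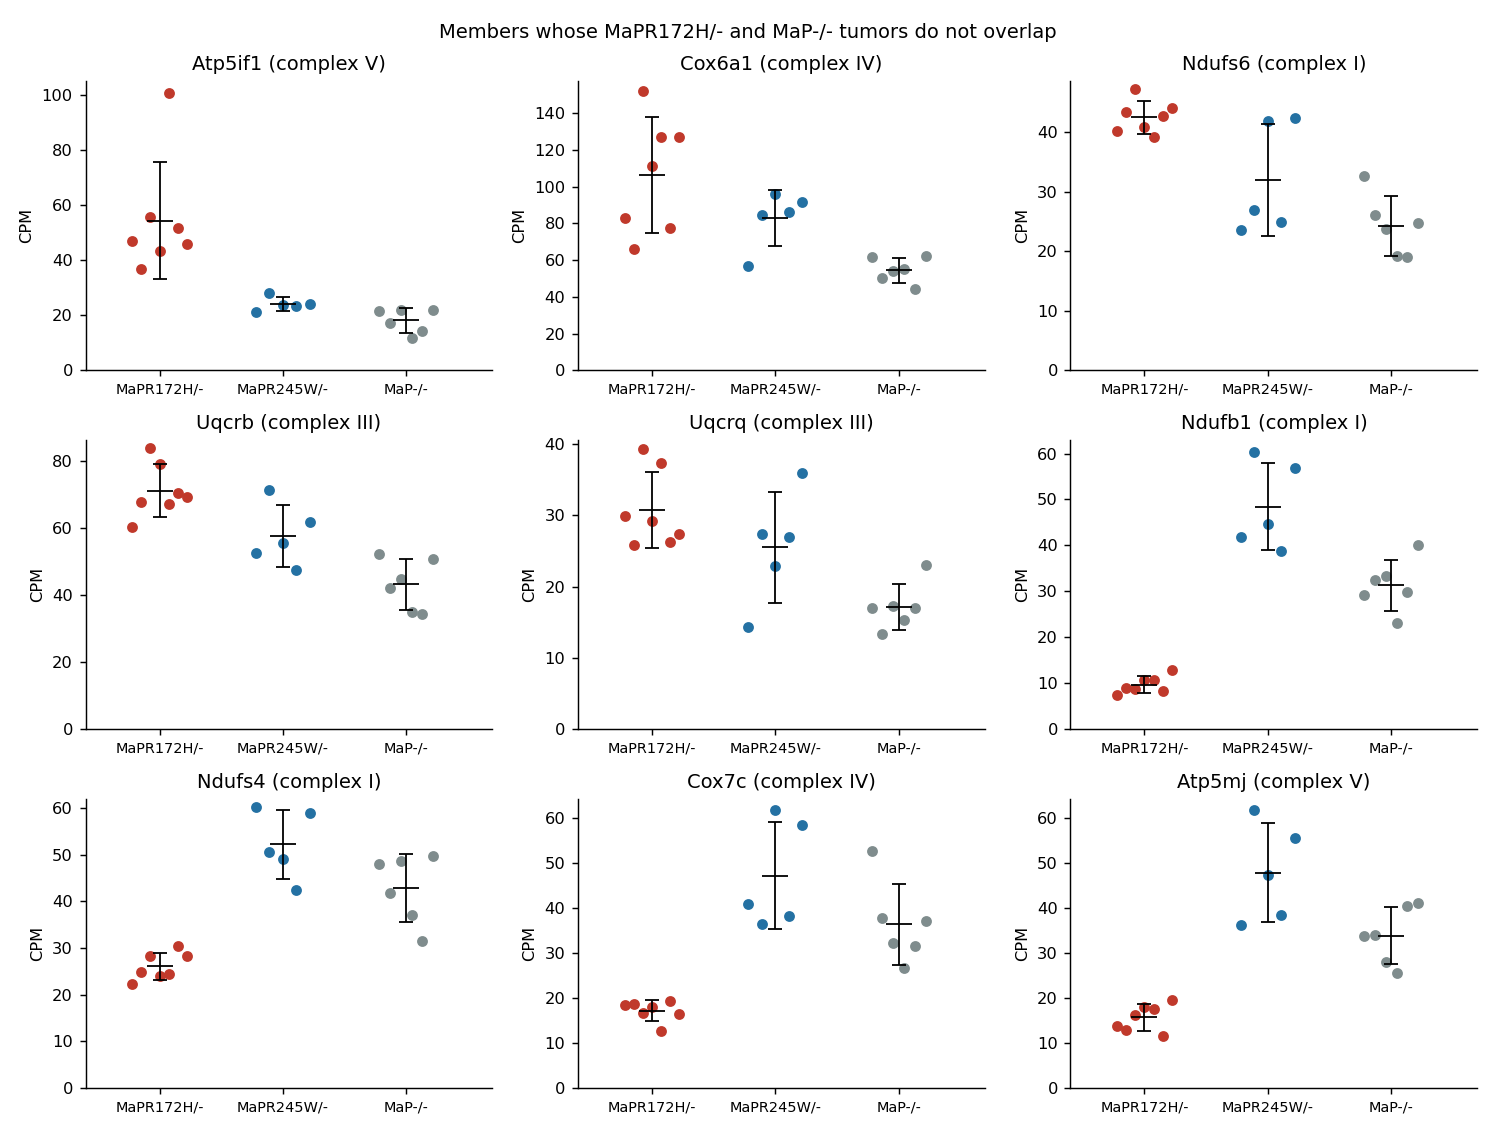
CPM in each tumor for the 9 members whose MaPR172H/- and MaP-/- tumors did not overlap. Points are tumors, bars are group means and whiskers are SD, with each vertical axis starting at 0. Atp5if1, Cox6a1, Ndufs6, Uqcrb and Uqcrq lie higher and Ndufb1, Ndufs4, Cox7c and Atp5mj lower in MaPR172H/- tumors, and Ndufb1 runs from 7.34 to 13.0 CPM there.

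The log2 fold changes of this comparison were also set against base composition. Across the 84 members the log2 fold change had a Spearman correlation of 0.31 with transcript GC content, and across the protein-coding genes tested of 0.37, both given as descriptions of genes that share their libraries. With a trend on GC content removed, Ndufb1, Cox7c, Atp5mj, Atp5if1, Ndufs6, Uqcrb and Uqcrq stayed below an FDR of 0.05. Ndufs4 (log2 fold change -0.43), Cox6a1 (0.66) and Atp5f1d (0.74) did not, with adjusted p of 0.235, 0.117 and 0.073 in edgeR, and neither did Cox7a2l (0.57), Ndufb10 (0.56) and Ndufs8 (0.36). The part of platform and base composition in these calls was not tested. The last 3 also missed the threshold in 9, 8 and 10 of the 13 fits that left out a tumor. In MaPR245W/- against MaP-/- tumors, read on 1 sequencer model, the correlation with GC content was 0.26 over the members and 0.16 over protein-coding genes. In MaPR172H/- against MaPR245W/- tumors it was 0.16 and 0.24.

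The 2 missense groups were compared with each other in a fit of all 18 tumors. The members were mostly lower in MaPR172H/- tumors, with a median of -0.28 and 20 of 84 above 0, where 50.2% of all genes and 44.8% of the protein-coding genes tested were. At an FDR below 0.05, 23 members were called lower, where 6.49% of all 22481 genes were. Only Atp5if1 was higher, where 2.91% of all genes were (log2 fold change 1.18, SE 0.24, adjusted p = 0.00397 in edgeR). DESeq2 called 25 lower (4.88% of its genes) and 1 higher (3.35%). Among the 22481 genes that passed the filter it called 1886 lower and 1352 higher. At an unadjusted p below 0.05 there were 33 lower (14.6% of all genes) and 4 higher (11.4%, and 8.34% of protein-coding genes). The lower members were 8 of complex I, 2 of complex III, 5 of complex IV and 8 of complex V, and 0 of complex II. For 10 of the lower members (4.05% of all genes tested) and for Atp5if1 (1.78%) the groups did not overlap. The median was -0.29 in complex I, -0.17 in II, -0.11 in III, -0.21 in IV and -0.48 in V. Without YZ7 these medians were -0.39, -0.39, -0.28, -0.32 and -0.50. With other single tumors left out, complex III reached -0.03 (without YZ3), complex IV -0.45 (without JM1126) and -0.40 (without RM0014), and complex I -0.19 and all members -0.19 (both without JM1133). The order of complexes I to IV therefore rests on single tumors.

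This comparison shares its MaPR172H/- tumors with the one before, and the 4 members that were lower there had the smallest p here as well. Ndufb1 fell by 2.32 on the log2 scale (SE 0.18, adjusted p = 6.96e-07), Atp5mj by 1.61 (adjusted p = 2.95e-05), Cox7c by 1.46 (adjusted p = 8.52e-05) and Ndufs4 by 1.002 (adjusted p = 0.000258), all in edgeR. Their order in the 3 groups was MaPR245W/-, MaP-/- and MaPR172H/-, from the highest mean to the lowest. Complex V held Atp5f1e, the epsilon subunit, at 24.5 to 47.4 CPM (median 32.1) in MaPR172H/- and 59.9, 91.2, 81.7, 62.3 and 111 CPM in MaPR245W/- tumors. The groups did not overlap (log2 fold change -1.21, adjusted p = 0.00105 in edgeR). The membrane subunits Atp5mf (-0.88), Atp5me (-0.76) and Atp5mk (-1.02), and Atp5pb of the peripheral stalk (-0.67), were lower as well. So were Atp5mc1 (-0.82) and Atp5mc2 (-1.02), 2 of the genes for the c subunit of the rotor. The third, Atp5mc3, was at -0.58 and not called, whereas with a skeletal muscle covariate Atp5mc3 was called and Atp5mc1 was not. The alpha and beta subunits Atp5f1a (-0.21, SE 0.18) and Atp5f1b (-0.24, SE 0.15) were not called.

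In the other complexes the Rieske iron-sulfur protein Uqcrfs1 was at 34.7 to 59.9 CPM (median 48.4) in MaPR172H/- and 64.5, 136, 96.4, 70.6 and 109 CPM in MaPR245W/- tumors. All MaPR245W/- tumors lay above all MaPR172H/- tumors (log2 fold change -0.99, SE 0.18, adjusted p = 0.00211 in edgeR). In complex IV, Ndufa4 (-1.36), Cox4i1 (-0.72) and Cox6c (-0.65) were lower beside Cox7c, as was Cox5b-ps (-1.48), which had at most 1.37 CPM in any tumor. In complex I, Ndufc1 (-1.17), Ndufb4 (-1.27), Ndufa2 (-0.89), Ndufb8 (-0.75), Ndufc2 (-0.74) and Ndufv1 (-0.57) were lower. Uqcr10 of complex III was at -0.77. Of the 18 fits that left out a tumor, Ndufb8 missed the threshold in 14, Ndufv1 and Atp5pb in 9 each, Ndufc2, Cox6c and Cox5b-ps in 6 each and Uqcr10 in 5. The members raised against MaP-/- tumors, other than Atp5if1, were not called here. Ndufs6 was at 0.41 (SE 0.18), Cox6a1 at 0.36 (SE 0.20), Uqcrb at 0.30 (SE 0.15) and Uqcrq at 0.27 (SE 0.20). Ndufb10 was at 0.46 (SE 0.19) and Atp5f1d at 0.38 (SE 0.22), whereas Ndufs8 (-0.40, SE 0.19) and Cox7a2l (-0.20, SE 0.17) were negative. In the tumors without the reporter allele, 3 of 86 tested members were lower (0.98% of all genes in that fit) and 0 higher (0.0525%). These 3 were Ndufb1, Cox7c and Atp5mj.

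**Figure D3:**
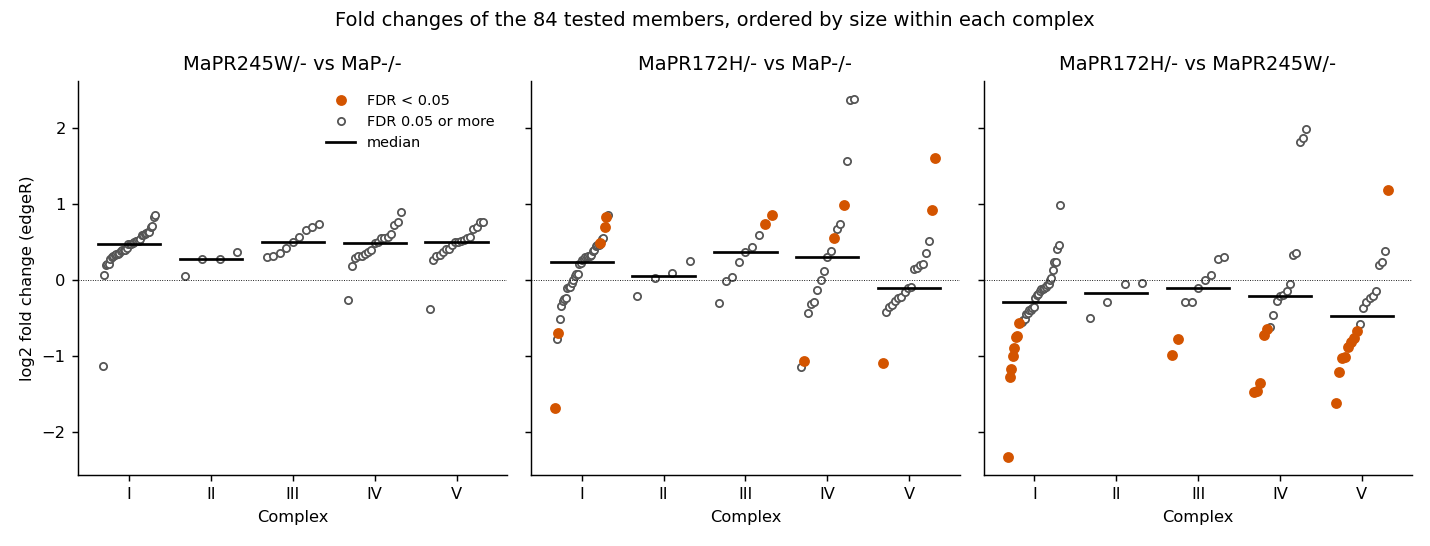
The log2 fold change from edgeR of each of the 84 tested members, ordered by size within its complex, in the 3 comparisons. Filled points have an FDR below 0.05 (0 in MaPR245W/- against MaP-/-, 13 in MaPR172H/- against MaP-/- and 24 in MaPR172H/- against MaPR245W/-), and horizontal bars are the complex medians. In the first comparison 81 members lie above 0, and in the second 52 lie above 0 and 32 below.

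Ranked by mean CPM, 64 of the 84 tested members were highest in MaPR245W/-, 18 in MaPR172H/- and 2 in MaP-/- tumors. Of the protein-coding genes, 41.8% were highest in MaPR245W/-, 35.8% in MaPR172H/- and 22.4% in MaP-/-. All 4 genes of complex II and 28 of the 36 of complex I were highest in MaPR245W/-, as were 6 of 9 in complex III, 12 of 17 in complex IV and 14 of 18 in complex V. MaP-/- was the lowest group for 50 members and MaPR172H/- for 31.

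Several members were high in single tumors. Ndufa5, an accessory subunit of complex I at chr6:24518659-24528012 of GRCm39, was at 245 CPM in YZ6, 217 CPM in JM833-T2 and 101 CPM in JM833-T1, and at 10.8 to 49.0 CPM elsewhere. The median deviation of 8 protein-coding genes within 1 Mb of Ndufa5 was 1.69 in YZ6, 1.73 in JM833-T2 and 0.81 in JM833-T1 on the log2 scale. Wasl was at 431 CPM in YZ6, 283 CPM in JM833-T1 and 243 CPM in JM833-T2, and at most 155 CPM elsewhere. Apart from Wasl and Cadps2, each neighbour was at most 15.3 CPM in any tumor, so the median rests largely on genes with few counts. Tmem229a was not raised in YZ6, at 8.53 CPM against 9.03 CPM in YZ2. Atp5pf, the F6 subunit of ATP synthase at chr16:84614160-84633154, was at 192 CPM in YZ4 and at most 102 CPM elsewhere, with a median deviation of 1.91 over 6 neighbours. These were the only 3 of 1476 pairs of a member and a tumor in which both the member and its neighbours deviated by at least 1 in the same direction. DNA copy number was not measured.

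The tissue-restricted copies in complex IV were set against their widely expressed twins by their share of the summed TPM of both. In YZ7, Ndufa4l2, a hypoxia-inducible copy of Ndufa4, took 40.7% (113 CPM), Cox4i2, known from lung, 16.7% (27.4 CPM) and Cox6b2, known from testis, 6.61% (7.22 CPM). The next highest tumors had 7.90%, 0.788% and 0.780%, and the medians were 2.16%, 0.519% and 0.326%. YZ7 also had the lowest epithelial marker level of its group, at 611 CPM against 3633 to 11844 CPM in the other MaPR172H/- tumors. Over 10 pericyte and smooth muscle genes, led by Acta2 (1154 CPM), it had the highest level of the 18 tumors, 2406 CPM, against 1622 CPM in YZ4 and 175 to 987 CPM elsewhere. The part of these cells in the values was not tested. The fitted log2 fold changes of Ndufa4l2 (2.36), Cox4i2 (2.38) and Cox6b2 (1.56) in MaPR172H/- against MaP-/- tumors were not called. Without YZ7 they were 0.33, 0.10 and -0.15.

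Cox6a2, the form of heart and skeletal muscle, was at 5.34 CPM in JM1233, 7.35% of the sum with Cox6a1, and at most 0.764 CPM elsewhere. Cox8b, which belongs to muscle and brown fat, was at 3.43 CPM in the same tumor and 4.50 CPM in JM833-T1, and at most 0.928 CPM elsewhere. JM1233 had the highest skeletal muscle marker level and JM833-T1 the highest level of the white and general fat markers. Over 7 brown and beige fat genes, led by Dio2, these tumors had 17.3 and 17.5 CPM, below JM779-T1 (185 CPM), JM663-T2 (75.4 CPM), YZ2 (43.3 CPM), YZ11 (34.6 CPM) and YZ4 (24.3 CPM). The part of these tissues in the values was not tested. Cox7a1, found in muscle and fat, had a median share of 2.65% of its sum with Cox7a2. Cox7b2 and Cox8c, known from testis, had no more than 1 count in any tumor.

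**Figure D4:**
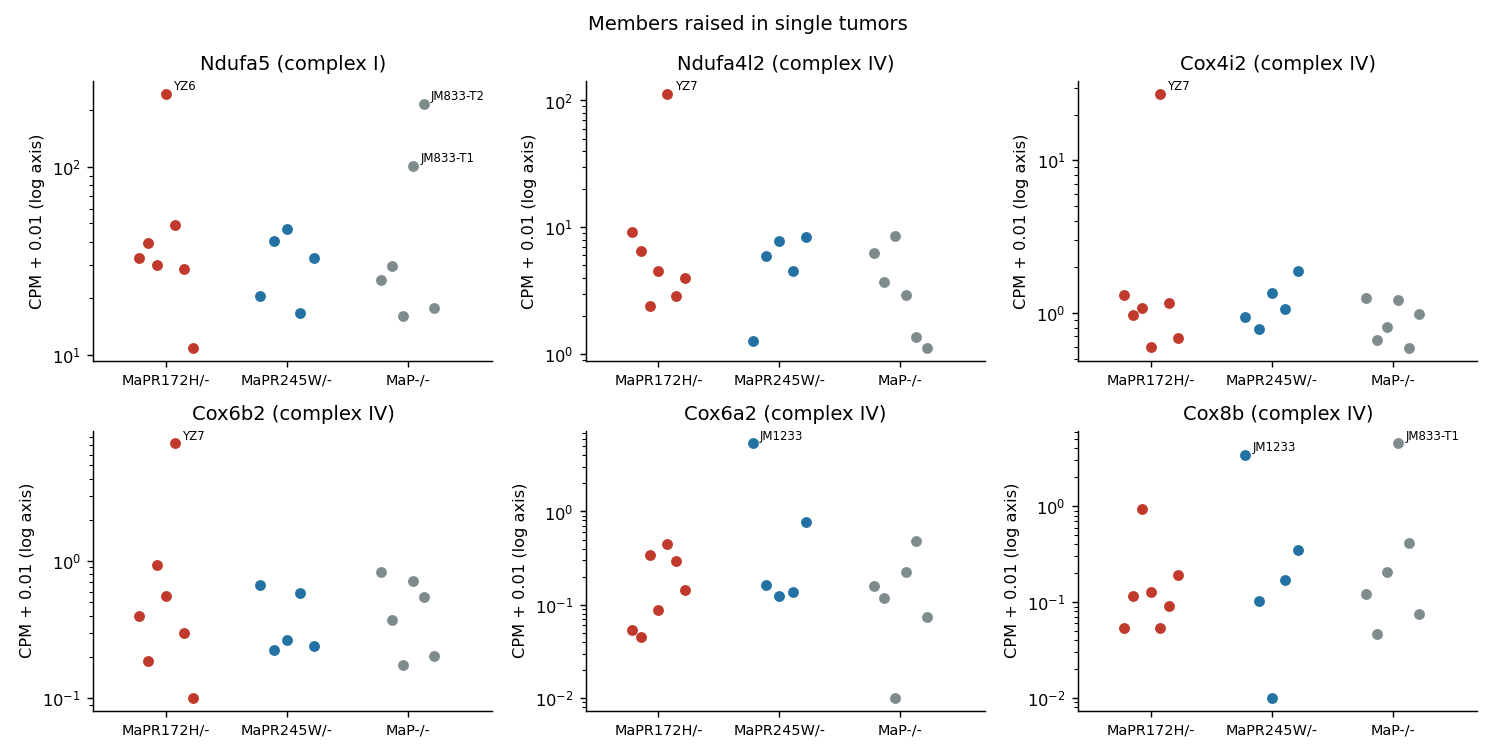
CPM plus 0.01 on a log axis for 6 members that were high in single tumors, with each point a tumor and the high tumors named. YZ7 stands alone for Ndufa4l2, Cox4i2 and Cox6b2, JM1233 for Cox6a2, JM1233 and JM833-T1 for Cox8b, and YZ6 and both JM833 tumors for Ndufa5.

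Genes that work with the subunits were taken from lists. Of 18 tested assembly factors of complex I, 0 were called against MaP-/- tumors in either mutant group, and Nubpl, which supplies iron-sulfur clusters, was lower in MaPR172H/- than in MaPR245W/- tumors (-0.99, adjusted p = 0.0272 in edgeR). Among the 4 factors of complex II, Sdhaf2 (-0.58) and Sdhaf4 (-0.80) were lower in the same comparison. None of the 9 factors of complex III was called in any comparison. Of 21 tested factors of complex IV, Pet100 and Higd2a were higher in MaPR172H/- than in MaP-/- tumors (3.22, SE 0.91 and 0.63, SE 0.15). Cox19 (-0.65) and Higd1a (-0.97) were lower than in MaPR245W/- tumors. Of 6 factors of complex V, Tmem242 alone was lower than in MaPR245W/- tumors (-0.68). Cycs, the electron carrier between complexes III and IV, fell in MaPR172H/- tumors, with a mean of 12.6 CPM against 25.2 CPM in MaP-/- and 31.96 CPM in MaPR245W/- tumors (-0.98 and -1.34, adjusted p = 0.00823 and 0.00232 in edgeR). It was the only one of 5 tested carriers called. Among 14 genes of the TCA cycle, Dld was lower in both MaPR172H/- comparisons (-0.54 and -0.59). Among 16 regulators of mitochondrial transcription and biogenesis, Myc (1.01), Polrmt (0.77) and Tfb2m (0.68) were higher in MaPR172H/- than in MaP-/- tumors, and Yy1 was lower than in MaPR245W/- tumors (-0.57). Between MaPR245W/- and MaP-/- tumors, edgeR called no gene of any kind. The median log2 fold change there was 0.17 in the assembly factors of complex I (14 of 18 above 0), 0.14 in those of II (3 of 4), 0.10 in III (7 of 9), 0.32 in IV (19 of 21) and 0.38 in V (5 of 6). It was 0.24 in the TCA cycle (13 of 14), 0.09 in the carriers (4 of 5) and 0.13 in the regulators (12 of 16).

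The subunits encoded by mitochondrial DNA were taken as a list of their own. In MaPR172H/- against MaP-/- tumors, 4 of 10 tested were higher, namely mt-Nd1 (1.17), mt-Nd2 (1.05), mt-Nd6 (1.24) and mt-Cytb (1.296), and 3 were lower, namely mt-Co2 (-2.62), mt-Co3 (-3.18) and mt-Atp6 (-2.15). Against MaPR245W/- tumors 6 of 11 were higher and 4 lower, and between MaPR245W/- and MaP-/- tumors 0 of 11 were called. The group means of mt-Co2 were 0.988 CPM in MaPR172H/-, 6.18 CPM in MaPR245W/- and 6.20 CPM in MaP-/- tumors, and those of mt-Co1 7173, 5252 and 4665 CPM. The comparison that carries these calls is the one that follows platform, and the part of platform and read assignment in them was not tested.

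Marker genes of other cells moved with the MaPR172H/- comparisons as well. Of 14 leukocyte genes, 5 were lower than in MaP-/- tumors and 0 higher, with a median of -1.14. Csf1r, the most abundant of them on average, was at 151 to 196 CPM in MaPR172H/- tumors, and at 139 CPM in JM663-T1 and 221 to 367 CPM in the other MaP-/- tumors. Of 10 fibroblast genes 3, of 8 endothelial genes 2 and of 16 proliferation genes 1 were lower, and 0 of each were higher. Of 16 epithelial genes 0 were called, with 16 of 16 above 0 and a median of 1.29. Of 18 hypoxia and glycolysis genes 2 were lower. Red blood cell genes had a median of -2.41 and fat genes of -3.02, with 0 called, and 6 of 6 red blood cell genes and 5 of 10 fat genes were lower at an unadjusted p below 0.05. Without JM833-T1 the median of the fat genes was -0.44, with 0 of 10 lower at that p. Against MaPR245W/- tumors the skeletal muscle genes had a median of -4.10, with 16 of 22 called lower. Without JM1233 their median was -1.59, with 5 of 22 called lower. Also lower there were 2 leukocyte genes (Adgre1 and Itgam), 2 proliferation genes (Pcna and Ccnb1), 2 hypoxia and glycolysis genes (Pgk1 and Ldha), 1 fibroblast gene (Lum) and 1 pericyte and smooth muscle gene (Des). Fibroblast genes had a median of -1.28 (0 of 10 above 0, 6 lower at p below 0.05) and endothelial genes of -0.44 (0 of 8 above 0, 3 lower). White and general fat genes went the other way, with a median of 3.16 (9 of 10 above 0, 3 higher at that p). With a skeletal muscle score as a covariate, 22 members were lower (5.31% of all genes in that fit) and 1 higher (2.3%) in that comparison. In that fit Atp5mc1, Atp5pb, Cox6c, Uqcr10 and Cox5b-ps were no longer called, with adjusted p of 0.0588 to 0.144 in edgeR, and Atp5mc3, Ndufa3, Ndufa7 and Ndufs3 were called lower. The part of the other cells in the members' values was not tested.

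Processed pseudogenes are a further limit on single members. The annotation holds 113 pseudogenes that match 43 of the members at 90% identity or more over at least 100 bases, and reads of a member can be assigned to them. Their counts were 23.9% of the sum with the member for Atp5mg, 21.9% for Ndufa12 and 8.26% for Ndufs6, and the values of these members are uncertain. For Atp5mg the share differed between groups, with medians of 11.95% in MaPR172H/-, 33.2% in MaPR245W/- and 28.4% in MaP-/- tumors, and with the pseudogene counts added its log2 fold change in MaPR245W/- against MaP-/- tumors was -0.31 in place of -0.38. Adding the pseudogene counts to the members changed no count of called members by more than 1.5 times.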

How the data were processed

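Gene counts of 18 tumors were analysed. The authors checked reads with FastQC 0.11.9, aligned them to GRCm39 with STAR 2.7.10b, estimated counts per gene with RSEM 1.3.3, and deposited whole-number counts without normalization. Genes were matched by identifier to GENCODE M39 (56620 of 57126). Counts were filtered with filterByExpr, scaled with TMM and tested with edgeR 4.0.16 (quasi-likelihood) and, as an alternative, DESeq2 1.42.0 in R 4.3.3, with Benjamini-Hochberg adjustment over all genes tested, never over the members. A gene was called at an FDR below 0.05 in edgeR, except where DESeq2 is named. Each mutant group was fitted with the MaP-/- group alone, and the mutants were compared in a fit of 18 tumors. Replicates are separate tumors, with Spearman correlations within groups of 0.862 to 0.970 (MaPR172H/-), 0.871 to 0.964 (MaPR245W/-) and 0.875 to 0.964 (MaP-/-). Scores use log2(CPM + 1). Named genes were core subunits, tissue-restricted twins, the largest and smallest change per complex, called members and the highest TPM per complex. Other members were named after their values were seen. The members and lists were chosen with earlier results of these data known. The tests were tried on simulated counts with 100 genes changed by 0.5 and 100 by 1.5 on the log2 scale. Of those changed by 0.5, 0 were called in each comparison. Of those changed by 1.5, 11 were called in MaPR245W/- against MaP-/-, 41 in MaPR172H/- against MaP-/- and 32 in MaPR172H/- against MaPR245W/- tumors. A count of 0 called members therefore does not show that small changes are absent. Figures were drawn with matplotlib 3.10.9.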

Additional observations from a re-analysis of the deposited data

Results flagged for a closer look

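In 204 sets of 5 to 7 tumors (62 members and the complex scores in each group), 19 had a highest or lowest tumor farther from its nearest neighbour than Dixon's 95% criterion allows. Chance alone flags about 1 in 20 sets. YZ7 accounts for 7 of them, JM1233 and JM779-T1 for 3 each, JM833-T1 for 2, and JM663-T1, JM836-T1, YZ10 and YZ4 for 1 each.

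Among MaPR172H/- tumors, YZ7 was the highest for Atp5if1 (100.5 CPM), Ndufa4l2 (112.9 CPM), Cox4i2 (27.38 CPM), Cox6b2 (7.219 CPM), Atp5pb (232.1 CPM) and the score of complex IV (0.6389), and the lowest for Cox7c (12.68 CPM). YZ10 was the lowest for Atp5f1d (49.21 CPM), and YZ4 the highest for Cox8b (0.9276 CPM). Among MaPR245W/- tumors, JM1233 was the highest for Cox6a2 (5.344 CPM) and Cox8b (3.433 CPM) and the lowest for Cox6a1 (56.57 CPM). Among MaP-/- tumors, JM833-T1 was the highest for Cox8b (4.503 CPM) and Sdha (225.9 CPM). JM779-T1 was the highest for Uqcr10 (63.69 CPM), Ndufb6 (14.19 CPM) and the score of complex I (0.04821), JM836-T1 the highest for Uqcrfs1 (79.41 CPM), and JM663-T1 the lowest for Ndufv1 (74.34 CPM).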

How the results depend on the processing

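Counts of called members moved by more than 1.5 times in these cases. DESeq2 called 10 members higher in MaPR245W/- than in MaP-/- tumors, where edgeR called 0, and 15 higher in MaPR172H/- than in MaP-/- tumors, where edgeR called 9. That 9 became 1 with a log2 fold change of at least 1 asked for as well. It became 5 in tumors without the reporter allele, where 1.12% of all genes were called higher, against 3.67% in the main fit. It became 4 with a trend on GC content removed and 5 without both tumors of mouse JM833, a choice made after seeing the data. The 23 members lower in MaPR172H/- than in MaPR245W/- tumors became 11 with the log2 fold change and 3 without reporter tumors (0.98% of all genes in that fit). In that fit of fewer samples 0 were higher (0.0525%). Leaving out 1 tumor at a time gave 6 to 13 higher and 4 to 5 lower against MaP-/- tumors, and 16 to 28 lower and 1 higher against MaPR245W/- tumors. It gave 0 called members between MaPR245W/- and MaP-/- tumors in edgeR. Shares of all genes are not given for these fits, nor for the fold change, GC and JM833 settings. Those counts therefore do not show whether the members moved apart from all genes.

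With a trend on gene length removed, the median log2 fold change in MaPR245W/- against MaP-/- tumors was 0.69 over all members, 0.68 in complex I, 0.72 in III and 0.71 in IV. With the GC trend removed it was 0.47 in complex II and 0.73 in III, and -0.73 in complex V of MaPR172H/- against MaPR245W/- tumors. The cause was not tested. In MaPR172H/- against MaP-/- tumors, complex IV had a median of 0.045 with a skeletal muscle covariate and of -0.058 to 0.44 with 1 tumor left out, the lowest without YZ7. By coding length Sdhd had 226 TPM and Atp5f1b 672 TPM.

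Changes of sign were found for members that were not called. Sdha in MaPR245W/- against MaP-/- tumors was at -0.17 with the muscle covariate, at -0.0492 with protein-coding genes alone and at -0.056 to 0.18 with 1 tumor left out, and Ndufa5 was at 0.50 without mouse JM833. In MaPR172H/- against MaP-/- tumors, Cox6b2 was at -0.14 in DESeq2 and -0.15 to 1.80 with 1 tumor left out, and Sdhb at -0.033 with the muscle covariate and -0.077 to 0.49 with 1 tumor left out. Against MaPR245W/- tumors, Ndufa4l2 was at -0.18 in DESeq2 and -0.19 to 2.06 with 1 tumor left out. Sdhb there was at 0.19 with the muscle covariate, 0.029 without reporter tumors and -0.38 to 0.082 with 1 tumor left out. For named members under settings other than leaving out 1 tumor, 747 other values kept direction and side of the threshold, 79 no longer passed it and 9 passed it anew. In the fits that left out 1 tumor, 863 values kept both, 82 no longer passed the threshold, 2 passed it anew and 11 changed sign. No paired analysis was possible because the replicate numbers of different groups name unrelated mice. Within MaP-/-, 2 mice gave 2 tumors each. With the counts of each mouse summed, 0 members were called between MaPR245W/- and MaP-/- tumors, as were 0% of all genes in that fit. In MaPR172H/- tumors 6 were higher and 4 lower than in MaP-/- tumors (1.75% and 3.43% of all genes). Against MaPR245W/- tumors 21 were lower and 1 higher (5.92% and 2.86% of all genes). The medians of the muscle and fat genes without JM1233 or JM833-T1 were added after seeing the data. Depth limits the members with few counts, such as Cox7b2 and Cox8c, for which no comparison was made.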
